A study of Mus musculus with 60 samples.

Results

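Livers of male mice of the inbred strain C3H/HeNCrl (C3H in the labels), which is prone to liver tumours, were compared 4 months after total body exposure to 0.2 Gy of 28Si ions and in non-irradiated control mice of the same time. The 28Si ion is a heavy charged particle of the kind met in cosmic rays, and the mice were 8 to 10 weeks old at exposure. The comparison holds 6 libraries, 3 of 28Si irradiated and 3 of control mice, 1 mouse each, out of 60 libraries that cover control, 28Si, 56Fe and 16O mice at 1, 2, 4, 9 and 12 months. Total RNA of the left liver lobe was depleted of ribosomal RNA and sequenced in paired reads of 50 bases. The 3 control mice also serve the comparisons with 56Fe and 16O, and the hour of collection is not given in the sources used here.

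Several RNA families appear below that differ in how they are made and what they do. Small structured RNAs are short RNAs that fold and work as RNA, among them the transfer RNAs of mitochondria, the Y RNAs bound by the Ro protein, the small nucleolar RNAs that guide or assist the maturing of ribosomal RNA, and the RNA of the signal recognition particle, which brings new secretory proteins to the endoplasmic reticulum. Acute phase proteins are made and secreted by hepatocytes in response to inflammatory cytokines. Kupffer cells are the resident macrophages of the liver sinusoids.

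Values are RPKM, a read count corrected for transcript length and for sequencing depth, summed over the transcripts of a gene and listed in the order of replicates 1, 2 and 3. Read pairs behind the RPKM numbered 11412665 to 19141638 per control library and 19328706 to 24103322 per 28Si library, so that each 28Si library was deeper than each control library. The annotated transcripts held 80.0% to 84.2% of mapped reads in the control libraries and 73.3%, 56.0% and 82.0% in the 28Si libraries, so that 28Si replicate 2 stands apart. All 8 hepatocyte markers were present in each library. The median log2 fold change over all genes was -0.01 after scaling by trimmed means and -0.18 in the RPKM as deposited. Fold changes below are on the scaled log2(RPKM + 0.1) scale, which can understate the change of genes with low RPKM. Where some libraries of a group are at 0 RPKM, the fold change depends on the added 0.1 and can be overstated. In bulk tissue, fewer cells of a type and less RNA per cell cannot be told apart.

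The 28Si livers had more of a set of small structured RNAs and less of several macrophage, mitochondrial and short ribosomal protein mRNAs, while most genes did not pass the test. Of 11252 genes tested with limma and Benjamini-Hochberg adjustment, 43 passed at an adjusted p of at most 0.05 (0.382%), with 23 higher (0.204%) and 20 lower (0.178%) in 28Si livers. Of these, 20 genes (0.178%) also differed by at least 2-fold, 14 higher and 6 lower. In the RPKM as deposited the same thresholds gave 37 higher and 95 lower genes, so the balance of directions depends on the scaling. An unadjusted p under 0.05 was found for 1388 genes (12.3%), and the 3 values of each group did not overlap for 2039 genes (18.1%). Without 28Si replicate 2, 18 genes passed in place of 43, and without 28Si replicate 1, 12 genes were called in place of 20. A gene is said to have risen or fallen below when its adjusted p over all genes was at most 0.05.

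The sequences of 5 of the small RNAs that rose are given here to show how short they are and to mark the element by which each family is known. They come from GRCm38 on the strand of the gene, and none of the 5 overlaps another annotated gene. Capitals mark the anticodon in both transfer RNAs, the closing run of T in both Y RNAs, and the motifs TGATGA and last CTGA in the small nucleolar RNA.
mt-Tm, chrM:3845-3913, plus strand: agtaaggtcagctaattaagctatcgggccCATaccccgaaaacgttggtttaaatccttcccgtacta
mt-Tg, chrM:9391-9458, plus strand: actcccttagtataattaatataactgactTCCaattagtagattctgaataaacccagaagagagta
Rny1, chr6:47788069-47788180, minus strand: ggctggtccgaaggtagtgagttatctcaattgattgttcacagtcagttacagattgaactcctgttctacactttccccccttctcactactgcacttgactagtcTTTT
Rny3, chr6:47781624-47781725, plus strand: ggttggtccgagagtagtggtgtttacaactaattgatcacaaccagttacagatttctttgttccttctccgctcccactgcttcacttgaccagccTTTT
Snord104, chr11:106500993-106501062, plus strand: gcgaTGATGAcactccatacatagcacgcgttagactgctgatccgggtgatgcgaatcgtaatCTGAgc
The anticodon CAT of mt-Tm, the transfer RNA for methionine, stands at bases 31 to 33, as does TCC in mt-Tg, the transfer RNA for glycine. Rny1 and Rny3 lie on opposite strands with 6343 bases between them. In the genome, mt-Tm ends at the base before mt-Nd2 begins and mt-Tg at the base before mt-Nd3 begins.

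The mitochondrial transfer RNAs mt-Tm and mt-Tg were at or near 0 in control livers and well above it in 28Si livers. mt-Tm had 0, 0 and 0 RPKM in control mice and 34.9, 45 and 53.7 RPKM in 28Si mice, from 0 reads against 58, 60 and 83 reads per library. Against a floor of 3 reads over the 3 control libraries together, which is 0.908 RPKM, mt-Tm was at least 48.7-fold higher at 44.3 RPKM over the pooled 28Si libraries. It reached the filter of 0.5 RPKM in 3 libraries only through the 28Si group, so its p-value is not given. mt-Tg had 1.70, 0.768 and 1.29 RPKM in control mice and 28.7, 35.8 and 44.7 RPKM in 28Si mice. The groups did not overlap, with a log2 fold change of 4.96 (SE 0.27, adjusted p = 0.000182 from limma). In reads, mt-Tg had 4 over the control libraries and 162 over the 28Si libraries, a ratio per depth of 29.5 with a 95% counting interval of 11.3 to 109 that covers counting error only. mt-Tl1, a transfer RNA for leucine whose gene ends just before mt-Nd1, passed as well, but it too was tested only through the 28Si group, on 2 reads in each 28Si library and 0 in control, too few for a fold. mt-Tv, mt-Tl2 and mt-Tc were tested and did not pass. mt-Tl1 and the genes named below that lie outside the naming rule were chosen after their values were seen.

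Both Y RNAs, which sit in the Ro ribonucleoprotein, rose. Rny3 had 20.9, 21 and 13.7 RPKM in control mice and 73.2, 61.4 and 87.2 RPKM in 28Si mice. Rny1 had 6.18, 8.40 and 4.69 RPKM in control mice and 33.7, 24.9 and 34.7 RPKM in 28Si mice. In both genes the lowest 28Si value was above the highest control value, with log2 fold changes of 2.17 (SE 0.14, adjusted p = 0.000449) for Rny3 and 2.46 (SE 0.17, adjusted p = 0.000603) for Rny1.

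Of 6 small nucleolar RNAs tested, 2 rose, as did the RNAs of 2 other housekeeping complexes. Snord13, a box C/D RNA of ribosomal RNA maturing, had 31.6, 26.6 and 21.1 RPKM in control mice and 129, 197 and 195 RPKM in 28Si mice (log2 fold change 2.88, SE 0.23, adjusted p = 0.00118). Snord104 had 22.3, 9.70 and 5.01 RPKM in control mice and 69.3, 107 and 101 RPKM in 28Si mice (log2 fold change 3.31, SE 0.45, adjusted p = 0.0246). The control values of Snord104 spread widely, and it no longer passed without any 1 of the 28Si libraries (adjusted p up to 0.115). Rn7s1, the RNA of the signal recognition particle, had 39.4, 40.2 and 31.3 RPKM in control mice and 62.0, 59.7 and 75.9 RPKM in 28Si mice (log2 fold change 1.01, SE 0.11, adjusted p = 0.0112). The annotated Rn7s1 and Rn7s2 sequences differ at 0 bases, so reads cannot be told apart between them, and Rn7s2 also passed, with a log2 fold change of 0.79. Rn7s2 lost the call in 4 of the 6 fits without 1 library (adjusted p up to 0.0856) and with limma-voom (adjusted p = 0.0829). Rmrp_1, the RNA of the ribonuclease MRP complex, had 0.616, 0.930 and 0.935 RPKM in control mice and 2.81, 3.31 and 6.86 RPKM in 28Si mice (adjusted p = 0.0194), and did not pass without control replicate 1 or 28Si replicate 2 (adjusted p up to 0.0926).

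Of 39 small structured RNAs tested, 35 were higher in 28Si livers, 12 rose and 0 fell by limma, against 0.204% of all genes that rose. These counts are in part set by the filter, since only 26 of the 39, and 10 of the 12, reached 0.5 RPKM in all 3 control libraries, and 2 of the 12, mt-Tm and mt-Tl1, were at 0 in all 3. The 12 comprised 3 of 6 mitochondrial transfer RNAs, 6 of 13 miscellaneous small RNAs (the Y RNAs and the 2 identical signal recognition particle RNAs among them), 2 of 6 small nucleolar RNAs and 1 of 3 ribozyme RNAs. None of 9 small nuclear RNAs and none of 2 small Cajal body RNAs passed. RNAs of these classes were 66 to 414 bases long, and RPKM at such lengths can rest on few reads. Reads per library ran from 2 in the 28Si libraries for mt-Tl1 to 346 to 510 for Rn7s1, which had 107 to 231 in control libraries. mt-Tg, Rny1, Rny3, Snord13 and Rn7s1 passed in each of the 6 fits that left out 1 library. Over all 17 alternative settings, Rny1 and Snord13 kept the call, while mt-Tg lost it in 2, Rny3 in 1 and Rn7s1 in 3. The adjusted p by limma there reached 0.180 for mt-Tg, 0.162 for Rny3 and 0.173 for Rn7s1.

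**Figure D1:**
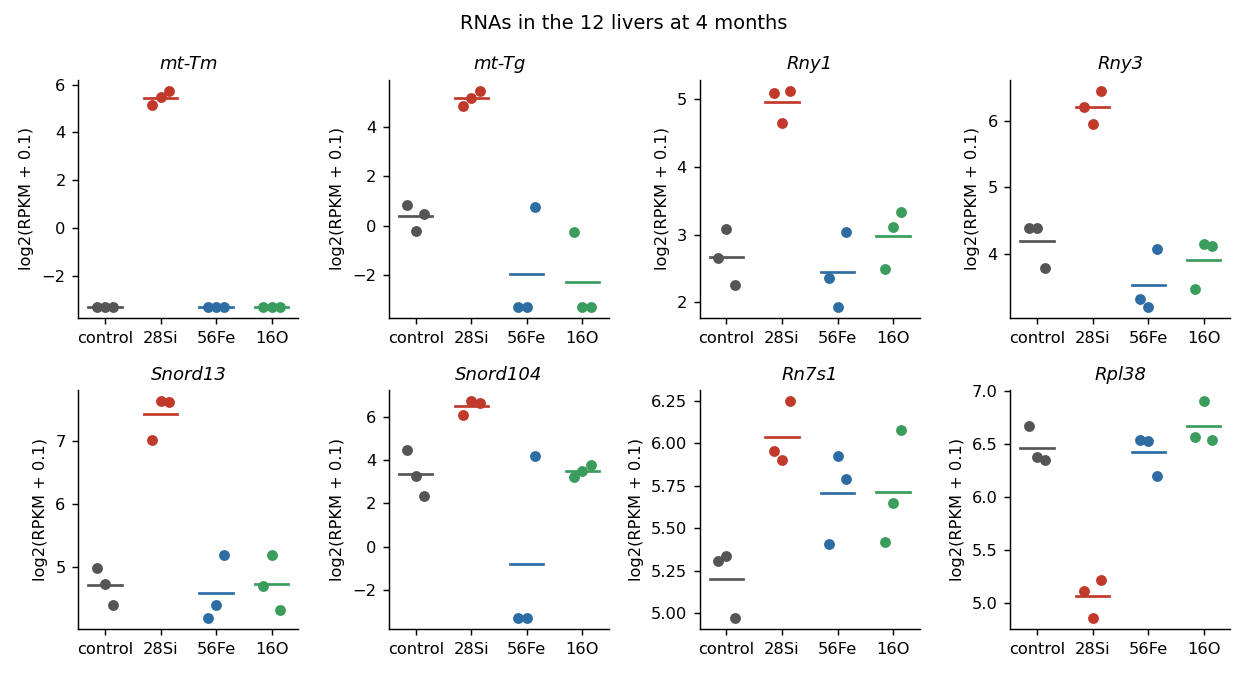
Levels of 8 RNAs in the 12 livers at 4 months, as log2(RPKM + 0.1) on each vertical axis, with 1 point per mouse and a line at the group mean. The 3 28Si points lie above all control, 56Fe and 16O points for mt-Tm, mt-Tg, Rny1, Rny3, Snord13 and Snord104, and below them for Rpl38.

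The small RNAs also set 28Si apart from the other ions at 4 months. mt-Tm was at 0 RPKM in all 6 of the 56Fe and 16O livers, and mt-Tg had 0, 0 and 1.57 RPKM after 56Fe and 0.725, 0 and 0 RPKM after 16O. Snord13 had 18.2, 20.9 and 36.5 RPKM after 56Fe and 25.8, 36.3 and 19.9 RPKM after 16O. These levels were below those of every 28Si mouse. In a fit of the 12 libraries of this time, 114 of 11620 genes (0.981%) passed between 28Si and 56Fe, 67 of them higher after 28Si (0.577%), and 37 (0.318%) between 28Si and 16O, 17 of them higher (0.146%). Of these, 47 of 11620 genes (0.404%) differed at least 2-fold between 28Si and 56Fe, 34 of them higher after 28Si, and 18 (0.155%) between 28Si and 16O, 12 of them higher. These counts hold mt-Tm, which was tested only through the 28Si livers. Rny3 was higher after 28Si than after 56Fe by 2.82 (SE 0.22, adjusted p = 9.05e-05 from limma) and than after 16O by 2.47 (SE 0.22, adjusted p = 0.000206), as log2 fold changes. Snord13 was higher by 2.99 and 2.88 (adjusted p = 0.000413 and 0.00049). The count against 56Fe was 15 without 28Si replicate 1 or 2 and 17 to 29 without 1 of the 56Fe libraries. The count against 16O was 11 without 28Si replicate 1 or 2, 35 without 28Si replicate 3 and 32 without 16O replicate 3. Both sets of differences rest on the same 3 28Si livers, which also enter the comparison with control.

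A larger share of mRNAs under 600 bases than of longer mRNAs was lower in 28Si livers, and above 600 bases the shorter mRNAs were not more often lower. Of 151 protein-coding genes with transcripts under 600 bases, 7 fell and 0 rose by limma, beside 0.178% and 0.204% of all genes. Their log2 fold changes had a median of -0.11, and 66.9% of them were lower in 28Si livers. Among 4227 genes with transcripts over 3000 bases, 2 rose and 3 fell, with a median of -0.02, and 54.0% were lower. Between 600 and 1000 bases the median of 705 genes was 0.04, with 2 that rose and 6 that fell, and 45.8% were lower.

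**Figure D2:**
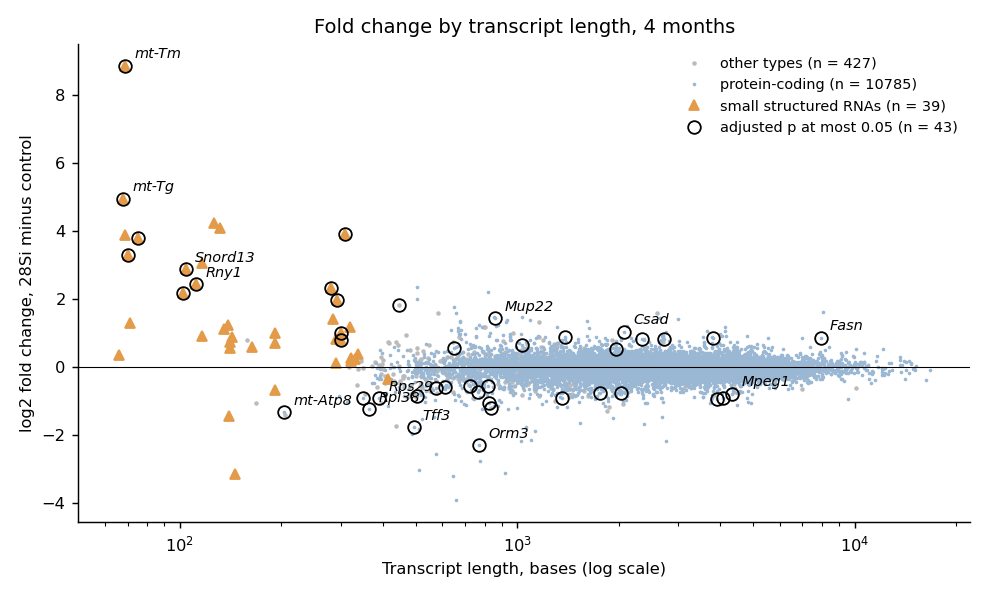
Log2 fold change of 28Si over control (vertical axis) against transcript length in bases (horizontal axis, log scale) for the genes tested with a known length, with small structured RNAs as triangles and circles around the 43 genes that passed. The 12 circled triangles are above 0, while the circled protein-coding genes under 600 bases are below it.

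Of the 7 mRNAs under 600 bases that fell, Rpl38, Rpl31 and Rps29 encode ribosomal proteins, mt-Nd3, mt-Atp8 and Ndufc1 mitochondrial proteins, and Tff3 a secreted peptide. Rpl38, a protein of the large ribosomal subunit (chr11:114668524-114672331), had 102, 82.9 and 81.6 RPKM in control mice and 34.4, 28.8 and 37.1 RPKM in 28Si mice. Rps29, of the small subunit, had 266, 230 and 220 RPKM in control mice and 104, 109 and 128 RPKM in 28Si mice. Neither gene overlapped between groups, with log2 fold changes of -1.23 (SE 0.10, adjusted p = 0.00118) for Rpl38 and -0.89 (SE 0.12, adjusted p = 0.0221) for Rps29. Rpl38 passed in each fit without 1 library, whereas Rps29 did not pass without control replicate 1 or 3 or 28Si replicate 1 or 3 (adjusted p up to 0.101). Rpl31 and Rpl39 fell with log2 fold changes of -0.84 and -0.57, and Rpl39 passed in no fit that left out 1 library (adjusted p up to 0.202). The ribosomal protein mRNAs were split in direction. Of 36 on the list of cytosolic ribosomal proteins, which does not hold Rpl38, 21 were higher and 15 lower. Of the 36, 1 fell (Rps29), beside 0.178% of all genes, and the median was 0.05, or -0.12 in the RPKM as deposited. Processed pseudogenes of these genes can share their reads.

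In mitochondria, all 13 mRNAs of the mitochondrial genome were lower in 28Si livers, and 2 of them fell, beside 0.178% of all genes. Their log2 fold changes had a median of -0.61, beside -0.01 for all genes, and in the RPKM as deposited 7 of the 13 fell, beside 1.56% of all genes. mt-Nd3, a subunit of complex I, had 1575, 1863 and 1677 RPKM in control mice and 806, 657 and 995 RPKM in 28Si mice (log2 fold change -0.90, SE 0.10, adjusted p = 0.0121 from limma). mt-Atp8, a subunit of ATP synthase whose gene overlaps mt-Atp6, had 722, 1016 and 710 RPKM in control mice and 344, 189 and 357 RPKM in 28Si mice (log2 fold change -1.32, SE 0.17, adjusted p = 0.0194). The lowest mt-Atp8 value was in 28Si replicate 2. Neither mt-Nd3 nor mt-Atp8 passed without 28Si replicate 1 or 2 (adjusted p up to 0.0856). mt-Nd3 thus fell beside a higher mt-Tg, the gene directly before it. The other 11 did not pass, with mt-Atp6 nearest at a log2 fold change of -0.99 (adjusted p = 0.0684). Of 33 nuclear genes of oxidative phosphorylation, 1 fell, beside 0.178% of all genes, and the median was -0.03. That gene, Cox5b of complex IV, had 105, 90.8 and 83.5 RPKM in control mice and 58.7, 45.1 and 66.9 RPKM in 28Si mice (log2 fold change -0.55, SE 0.09, adjusted p = 0.0464). Cox5b did not pass in any fit without 1 library or with limma-voom (adjusted p = 0.425). Ndufc1 and Chchd10, short mRNAs of mitochondrial proteins, fell by 0.61 and 0.55 on the log2 scale. Ndufc1 and Chchd10 lost the call without most single libraries (adjusted p up to 0.156 and 0.174) and with limma-voom (adjusted p = 0.191 and 0.204).

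All 8 Kupffer cell markers were lower in 28Si livers. Their median log2 fold change was -0.51 beside -0.01 for all genes. Of the 8, 1 fell, beside 0.178% of all genes, or 3 in the RPKM as deposited, beside 1.56%. Cd5l, a protein secreted by macrophages, had 46.3, 39.8 and 44.3 RPKM in control mice and 23.1, 20.8 and 25 RPKM in 28Si mice (log2 fold change -0.74, SE 0.10, adjusted p = 0.0278 from limma). Vsig4, a complement receptor of Kupffer cells, had 13.3, 11.8 and 13 RPKM in control mice and 7.47, 6.43 and 8.61 RPKM in 28Si mice and did not pass (adjusted p = 0.0735). The summed Kupffer markers came to 102 to 111 RPKM in control and 58.3 to 73.2 RPKM in 28Si livers, none of the 8 was at 0, and the groups did not overlap. Adgre1, which encodes F4/80, did not pass, with a log2 fold change of -0.46 (adjusted p = 0.296). Clec4f, a lectin made by Kupffer cells alone in the liver, had 31.4, 27.4 and 30.4 RPKM in control mice and 22.5, 19.6 and 22.8 RPKM in 28Si mice (log2 fold change -0.28, adjusted p = 0.352). The Clec4f groups did not overlap in the RPKM as deposited, where the median log2 fold change over all genes was -0.18. After scaling they overlapped.

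Mpeg1, Ctss, Tmsb4x, Ly6a and Lpl, which are on no list of macrophage markers used here, also fell. Mpeg1, a pore-forming protein of macrophages, had 19.2, 19.9 and 18.8 RPKM in control mice and 10.5, 8.13 and 11.7 RPKM in 28Si mice (log2 fold change -0.77, SE 0.09, adjusted p = 0.0114). Ctss, the lysosomal protease cathepsin S, fell by 0.90 on the log2 scale and Tmsb4x, which binds actin monomers, by 0.72. Ly6a, a surface protein that interferon induces, had 38.6, 52.5 and 39.8 RPKM in control mice and 21.1, 15.4 and 18.9 RPKM in 28Si mice (log2 fold change -1.06, SE 0.13, adjusted p = 0.0193). Lpl, lipoprotein lipase, had 10.01, 12.9 and 9.91 RPKM in control mice and 5.52, 3.48 and 6.44 RPKM in 28Si mice (adjusted p = 0.0406). Of 19 genes of macrophage oxidant production, 18 were lower and 0 passed with limma or limma-voom. An unadjusted p under 0.05 was found for 4 of the 19, beside 12.3% of all genes. In the RPKM as deposited 2 of the 19 passed, beside 1.93% of all genes. Their log2 fold changes had a median of -0.30. Mpeg1 did not pass without 28Si replicate 1 or 2 (adjusted p up to 0.0679), and Cd5l passed without control replicate 2 but in no other fit without 1 library (adjusted p up to 0.156). The fall of Ly6a did not pass without any 1 of the 28Si libraries (adjusted p up to 0.0877), and Ctss and Tmsb4x did not pass without any library but control replicate 2 (adjusted p up to 0.114 and 0.115). Lpl passed in no fit without 1 library (adjusted p up to 0.174). Over all alternative settings the adjusted p by limma reached 0.717 for Mpeg1, 0.763 for Cd5l and 0.626 for Ly6a. It reached 0.719 for Ctss, 0.768 for Tmsb4x and 0.555 for Lpl.

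No blood cell marker passed, of 4 erythroid, 2 neutrophil, 1 T cell and 0 B cell markers tested. In the RPKM as deposited 1 erythroid marker passed, beside 1.93% of all genes. Without 28Si replicate 2, 1 erythroid marker passed, beside 18 of all genes. The summed erythroid markers came to 176 to 184 RPKM in control and 138 to 155 RPKM in 28Si livers, without scaling, and these sums did not overlap. The hepatocyte markers came to 35338 to 44475 and 24275 to 36885 RPKM. The neutrophil markers summed to 3.71 to 19 RPKM in control and 1.37 to 5.25 RPKM in 28Si livers, and the sums of both groups overlapped. Neither S100a8 nor S100a9, the calcium-binding proteins of neutrophils, passed (adjusted p = 0.289 and 0.314). The part of blood in the macrophage and acute phase values was not tested.

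Acute phase mRNAs were lower in 28Si livers, but the size of the difference rested in part on 1 control mouse. Of 39 positive acute phase genes tested, 37 were lower and 1 fell, beside 0.178% of all genes that fell. In the RPKM as deposited 19 of the 39 passed, beside 1.93% of all genes. Of the 39, 25 had an unadjusted p under 0.05, beside 12.3% of all genes. The log2 fold changes had a median of -0.71. Without control replicate 3 the median was -0.36, and 2 genes passed. Saa1, serum amyloid A, had 971, 80.4 and 3842 RPKM in control mice and 128, 64.6 and 31.8 RPKM in 28Si mice. Lcn2, an iron-trapping protein, had 7.38, 1.94 and 83.4 RPKM in control mice and 1.30, 0.933 and 0.856 RPKM in 28Si mice. Control replicate 3 held the highest value of both, and the Saa1 groups overlapped. Neither Saa1 nor Lcn2 passed (adjusted p = 0.344 and 0.314).

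Within the orosomucoids, which carry drugs and lipids in plasma, 1 member fell. Orm3 had 2.69, 2.91 and 5.67 RPKM in control mice and 0.590, 0.535 and 0.578 RPKM in 28Si mice (log2 fold change -2.29, SE 0.30, adjusted p = 0.0221 from limma). Its lowest control value was above its highest 28Si value, but limma-voom did not call it (adjusted p = 0.113) and no fit without 1 of the 28Si libraries did (adjusted p up to 0.128). Orm1 and Orm2 did not pass, and reads of these close paralogs can be shared. C9, a protein of the complement membrane attack complex, had 530, 489 and 489 RPKM in control mice and 343, 279 and 350 RPKM in 28Si mice and missed the threshold (adjusted p = 0.0804). Serping1, the inhibitor of the first complement component, fell, with 191, 224 and 210 RPKM in control mice and 111, 82.9 and 138 RPKM in 28Si mice (log2 fold change -0.76, SE 0.10, adjusted p = 0.0221). It was the only 1 of 34 complement and coagulation genes tested that passed, beside 0.178% of all genes that fell. Serping1 did not pass without control replicate 3 or 28Si replicate 1 or 2 (adjusted p up to 0.145).

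**Figure D3:**
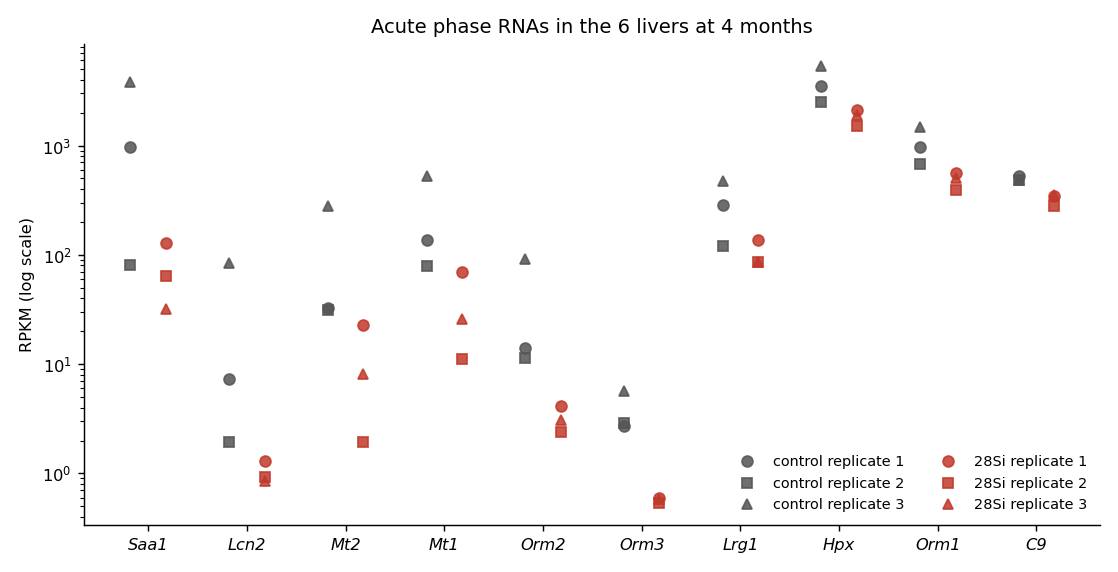
RPKM (vertical axis, log scale) of 10 acute phase genes in the 3 control and 3 28Si livers at 4 months, with 1 symbol shape per replicate number. Control replicate 3 is the highest point for each gene but C9, and the 3 28Si points of Orm3 lie near 0.6 RPKM under all control points.

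Cytokine signalling and growth hormone lists were mostly lower, with no call after scaling. Of 27 genes of IL-6, IL-1 and IL-8 type signalling, 25 were lower and 0 passed with limma (6 at an unadjusted p under 0.05, 0 with limma-voom). The median of the log2 fold changes was -0.35, or -0.15 without control replicate 3. Of 33 interferon-induced genes, 29 were lower and 0 passed (7 at an unadjusted p under 0.05), with a median of -0.17. Of 19 growth hormone and IGF-1 genes, 17 were lower and 0 passed (5 at an unadjusted p under 0.05), with a median of -0.18. In the RPKM as deposited 4 of the 27, 0 of the 33 and 3 of the 19 passed, beside 1.93% of all genes.

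Ppp1r3c of glycogen metabolism and Fasn of fatty acid synthesis rose in 28Si livers. Ppp1r3c, which brings protein phosphatase 1 to glycogen, had 7.14, 8.53 and 6.82 RPKM in control mice and 11.6, 9.27 and 15.8 RPKM in 28Si mice (log2 fold change 0.85, SE 0.12, adjusted p = 0.0298 from limma). Fasn, fatty acid synthase, had 102, 99.7 and 76.2 RPKM in control mice and 154, 143 and 151 RPKM in 28Si mice (log2 fold change 0.88, SE 0.13, adjusted p = 0.0298). In both genes every 28Si value was above every control value. Of 23 fatty acid and triglyceride synthesis genes 19 were higher and 1 rose, beside 0.204% of all genes that rose. An unadjusted p under 0.05 was found for 14 of the 23, beside 12.3% of all genes. Their log2 fold changes had a median of 0.30, or 0.12 in the RPKM as deposited, where 0 of the 23 passed. Scd1, which makes monounsaturated fatty acids, had 668, 1184 and 1181 RPKM in control mice and 1665, 1276 and 2061 RPKM in 28Si mice and did not pass (adjusted p = 0.157). Of 26 cholesterol synthesis genes, 23 were higher and 0 passed with limma (4 at an unadjusted p under 0.05, 0 with limma-voom), with a median of 0.19. Without 28Si replicate 2 neither Ppp1r3c nor any member of these lists passed. Fasn (adjusted p up to 0.156) and Ppp1r3c (0.129) also lost the call without control replicate 1 or 3, among others.

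**Figure D4:**
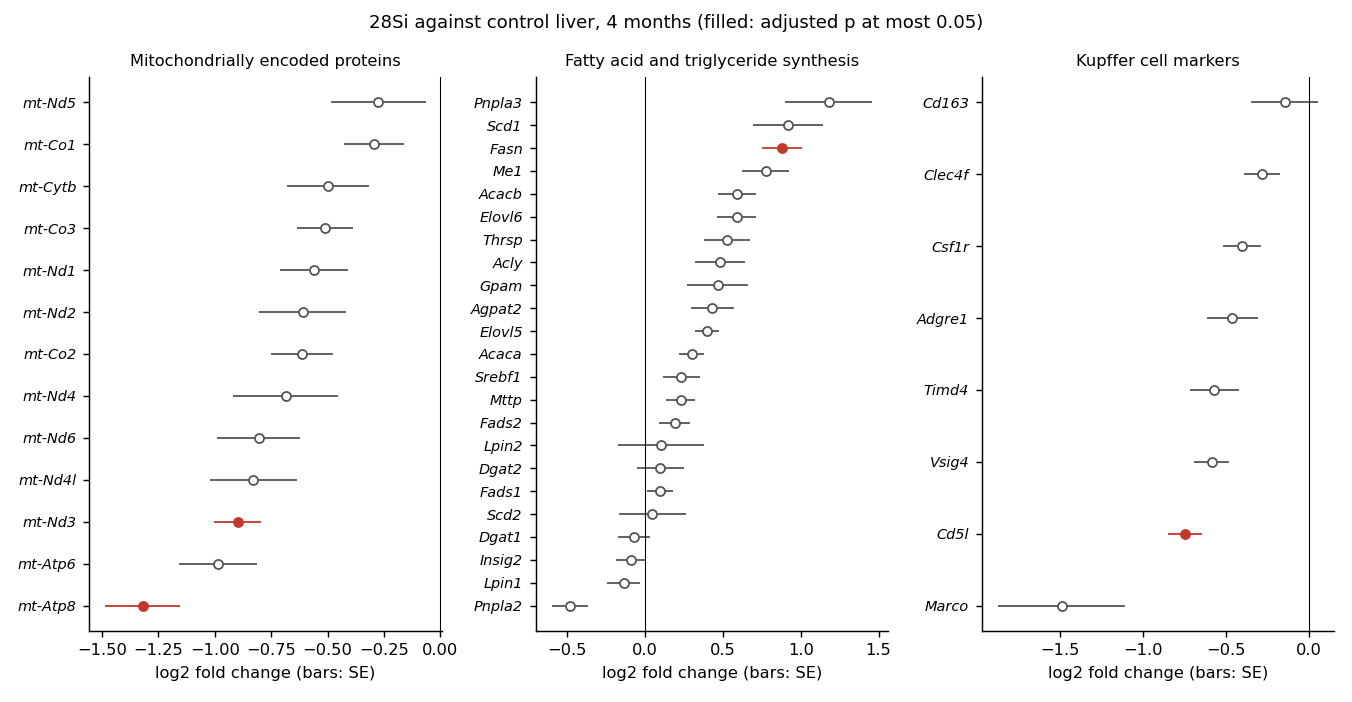
Log2 fold change of 28Si over control (horizontal axis, bars show the SE) for the tested members of 3 gene lists at 4 months, with filled points for an adjusted p of at most 0.05. Most points of the fatty acid list are right of 0, and all 13 mitochondrially encoded mRNAs and all 8 Kupffer cell markers are left of 0.

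The enzymes Csad, Gnmt, Ces2c and Pnp rose. Csad, which makes the precursor of taurine, had 60.2, 45 and 41.3 RPKM in control mice and 90.0, 75.5 and 102 RPKM in 28Si mice (log2 fold change 1.05, SE 0.12, adjusted p = 0.0122 from limma). Gnmt, which methylates glycine and so uses up S-adenosylmethionine, had 445, 454 and 413 RPKM in control mice and 578, 541 and 733 RPKM in 28Si mice (log2 fold change 0.66, SE 0.09, adjusted p = 0.0296). Csad did not pass without 28Si replicate 1 or 2 (adjusted p up to 0.0679), nor Gnmt without control replicate 1 or 3 or 28Si replicate 2 or 3 (adjusted p up to 0.133). Ces2c, a carboxylesterase, rose with a log2 fold change of 0.55 (adjusted p = 0.0298), and Pnp, of purine breakdown and salvage, with 0.91 (adjusted p = 0.0298). Ces2c and Pnp each lost the call in 5 of the 6 fits without 1 library (adjusted p up to 0.159 and 0.174). Gnmt was the 1 of 32 amino acid breakdown genes that passed, and Ces2c the 1 of 29 genes of xenobiotic metabolism, beside 0.204% of all genes that rose. Mup22, a major urinary protein of male liver, had 99.8, 65.4 and 107 RPKM in control mice and 238, 197 and 209 RPKM in 28Si mice (log2 fold change 1.44, SE 0.20, adjusted p = 0.0247). Reads of the Mup genes can be shared among near-identical copies, which leaves Mup22 uncertain, and it did not pass without control replicate 1 or 28Si replicate 1 or 2 (adjusted p up to 0.156). It was the 1 of 33 male-biased liver genes that passed, beside 0.204% of all genes that rose. Of the 33, 22 were higher, with a median of 0.23.

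Among genes that fell outside these groups, Tff3 and Snhg12 had large differences. Tff3, a secreted trefoil peptide, had 18.4, 14.9 and 21.2 RPKM in control mice and 4.46, 5.56 and 4.08 RPKM in 28Si mice (log2 fold change -1.75, SE 0.24, adjusted p = 0.0246 from limma). Tff3 did not pass without control replicate 1 or 3 or 28Si replicate 1 or 3 (adjusted p up to 0.156). Snhg12, a long noncoding RNA that hosts small nucleolar RNAs in its introns, had 10.2, 11.7 and 9.98 RPKM in control mice and 4.99, 2.82 and 4.62 RPKM in 28Si mice (log2 fold change -1.20, SE 0.14, adjusted p = 0.0121). Snhg12 passed in each fit without 1 library but not with limma-voom (adjusted p = 0.0829).

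No member passed with limma in the lists of DNA damage, proliferation, clock and haem genes, and shares at an unadjusted p are to be read beside the 12.3% of all genes. Of 23 p53 targets, 16 were higher and 1 had an unadjusted p under 0.05, namely Bax, which promotes apoptosis, with a log2 fold change of 0.38 (adjusted p = 0.188). Of 30 DNA repair genes and 19 cell cycle genes, 1 each had an unadjusted p under 0.05. In the clock, 0 of 3 genes of the positive arm, 1 of 14 of the negative arm and 1 of 14 outputs did. Alas1, the first enzyme of haem synthesis, had 131, 233 and 256 RPKM in control mice and 121, 71.3 and 111 RPKM in 28Si mice (log2 fold change -0.83, SE 0.25, adjusted p = 0.231). Among 24 glutathione transferase and NRF2 genes 10 had an unadjusted p under 0.05, among 31 PPARa targets 3, among 29 PI3K and insulin signalling genes 2, among 11 aryl hydrocarbon receptor genes 3 and among 28 B cell receptor signalling genes 2. By limma-voom 0 members of these lists passed. In the RPKM as deposited 2 haem genes passed, as did 1 each of the clock outputs and the DNA repair, glutathione transferase and NRF2, PPARa and B cell receptor lists. The share of all genes that passed in the RPKM as deposited was 1.93%.

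The other times, with their own mice, were used to ask whether the 4 month differences were seen elsewhere. The test of the 28Si effect at 4 months against its mean effect at the other times called 0 of 12731 genes (0%) with limma, with 446 at an unadjusted p under 0.05 and 0 with limma-voom. Of the 12 small structured RNAs that rose at 4 months, 11 were higher in 28Si than in control livers at 1 month, 12 at 2 months, 12 at 9 months and 9 of 10 tested at 12 months. The test was passed by 0, 1, 5 and 0 of them, against 0.118%, 0.00903%, 0.115% and 0.0176% of all genes that rose at those times. At 9 months mt-Tm had 0, 0 and 0 RPKM in control mice and 303, 26.5 and 104 RPKM in 28Si mice. At 1 month mt-Tm had 27.4, 41.7 and 41.7 RPKM in control mice and 74.7, 34 and 65.1 RPKM in 28Si mice, and those groups overlapped.

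The control level of several of these RNAs moved with time. In control mice Snord13 had 84.4, 98.4 and 124 RPKM at 1 month and 23.8, 22 and 15.9 RPKM at 9 months. Of the 12 small RNAs, 9 were lower and 1 higher in control mice at 9 and 12 than at 1 and 2 months by limma, where 26.9% of all genes were lower and 28.7% higher. Libraries of 1 and 2 months also had less of their reads in annotated transcripts, 46.6% to 62.4% in control mice against 76.4% to 86.2% at 9 and 12 months. 28Si replicate 2 at 4 months, at 56.0%, lay within the range of the early control libraries and replicates 1 and 3 above it, with replicate 1, at 73.3%, below all control libraries of 4 months. The part of this share in the small RNA values was not tested. Without 28Si replicate 2, Snord104, Rmrp_1 and Rn7s2 lost the call, 7 of the 12 small RNAs kept it, and mt-Tm and mt-Tl1 no longer reached the filter.

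Control livers at 4 months differed at least 2-fold from control livers at the other times in 177 of 12731 genes (1.39%), and 28Si livers at 4 months from 28Si livers at the other times in 221 (1.74%). Without control replicate 2 the first count was 281. Genes that fell at 4 months had no common course. Of the 20, 10 of 19 tested were lower in 28Si livers at 1 month, 14 at 2 months, 10 at 9 months and 19 at 12 months, and 1 of them fell at any of these times. That gene was mt-Atp8, at 2 months, with 1645, 1678 and 1747 RPKM in control mice and 741, 612 and 707 RPKM in 28Si mice. The shares of all genes that fell at these times were 0.127%, 0.00903%, 0.00885% and 0%. In control mice 12 of the 20 were higher at 9 and 12 than at 1 and 2 months and 5 lower, beside the 28.7% and 26.9% of all genes. Rpl38 had 19.3, 15.7 and 21.5 RPKM in control mice at 1 month and 98, 73.9 and 78.3 RPKM at 12 months, against 34.7, 18.2 and 25.5 RPKM and 50.0, 44.9 and 46.5 RPKM in 28Si mice. The 28Si level of Rpl38 at 4 months lay between those of its control mice of the early and the later times. Cd5l had 52.1, 32.9 and 26.8 RPKM in control mice and 28.7, 85 and 26.8 RPKM in 28Si mice at 9 months, where the groups overlapped.

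**Figure D5:**
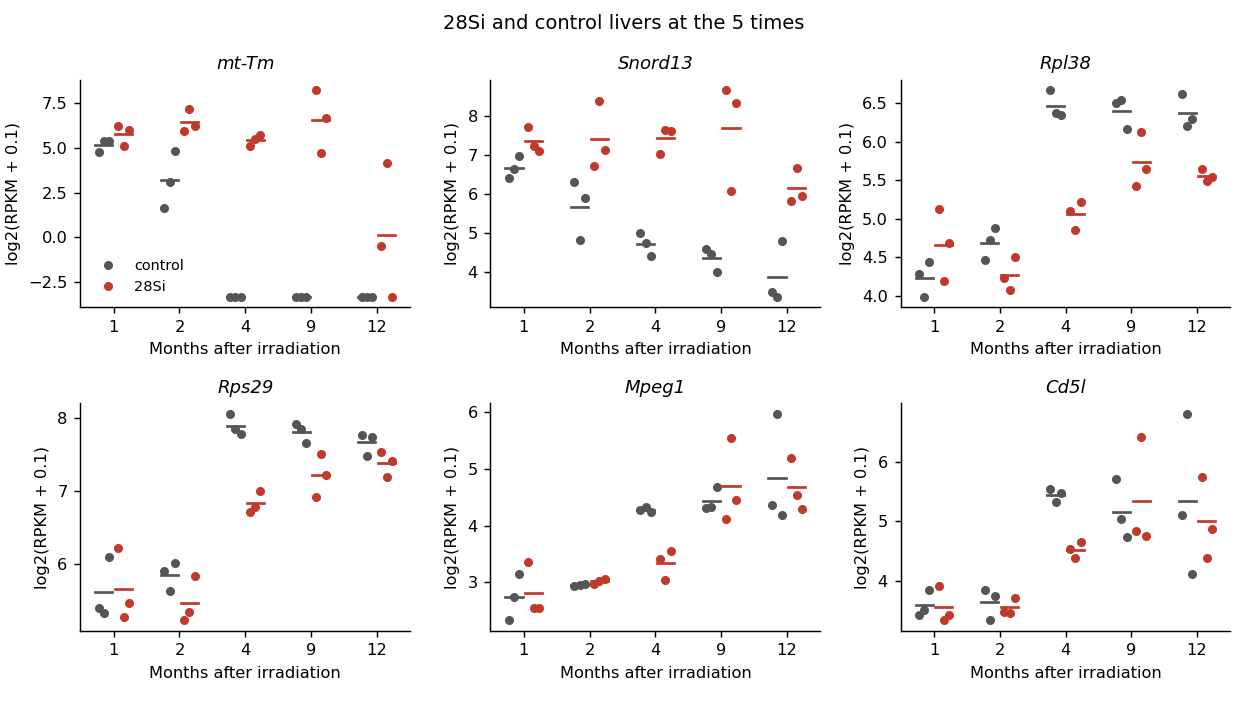
Log2(RPKM + 0.1) of 6 genes (vertical axes) in control and 28Si livers at the 5 times in months (horizontal axes, evenly spaced and not to scale), with 1 point per mouse and a line at the group mean. Control mt-Tm and Snord13 are lower from 4 months on than at 1 month, whereas control Rpl38, Rps29, Mpeg1 and Cd5l are higher. At 4 months the 28Si points lie above the control points for mt-Tm and Snord13 and below them for the other genes.

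Single transcripts differed where their genes did not. Of 22390 transcripts tested, 70 (0.313%) differed at least 2-fold with limma, 37 higher and 33 lower in 28Si livers, from 68 genes. This count is in part set by the filter. Of the 70, 18 were at 0 RPKM in all 3 livers of 1 group and were tested only through the other group. In 57 of the 70 the gene as a whole did not pass, and in 53 of these the gene differed by less than 0.5 on the log2 scale. Trf_3, a transcript of the iron carrier transferrin, had 47.9, 59.3 and 27.7 RPKM in control mice and 357, 273 and 373 RPKM in 28Si mice (log2 fold change 3.15, SE 0.23, adjusted p = 0.00581), while the gene differed by 0.01. Hsd11b1_5, a transcript of the enzyme that activates glucocorticoids, had 73.6, 72.8 and 62.5 RPKM in control mice and 9.61, 7.79 and 14.1 RPKM in 28Si mice (log2 fold change -2.55, SE 0.12, adjusted p = 0.00139), while the gene differed by 0.18. Asl_4, of the urea cycle enzyme argininosuccinate lyase, had 34.1, 37.1 and 28.3 RPKM in control mice and 8.79, 2.57 and 5.33 RPKM in 28Si mice (adjusted p = 0.0453). How reads were shared out among transcripts of 1 gene was set by the authors' mapping. The count of transcripts was 17 to 19 without any 1 control library and 37 and 26 without 28Si replicates 2 and 3.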

How the data were processed

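RNA of the left liver lobe was measured by RNA sequencing in 3 mice per group. Per the labels and the study's methods, the authors removed ribosomal RNA with Ribo-Zero, built TruSeq libraries, mapped reads in CLC Genomics Workbench to GRCm38 and deposited RPKM values for 123811 transcripts, in which length and mapped reads are already divided out; whether the libraries kept strand is not stated. The columns that hold group means were left aside, and no column of a single library went unused (0 columns). RPKM were summed per gene (38204 genes). Libraries of a fit were scaled by trimmed means (30% of M and 5% of A values), genes needed 0.5 RPKM or more in 3 libraries, and limma 3.58.1 (R 4.3.3, trended prior) was run on log2(RPKM + 0.1), with p-values adjusted after Benjamini and Hochberg over all genes tested. 28Si was compared with control over the 6 libraries of a time, ions at 4 months over 12 libraries and times with each other over all 60. Gene names, types, lengths and positions are from GENCODE release M21.

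Read pairs per library (11412665 to 24103322) and reads per gene were recovered from the steps between low RPKM of genes with 1 transcript, of which 99.8% to 99.9% came out whole within 0.02 of a read; limma-voom on these reads, with at least 10, was an alternative. Counting intervals and floors (3 reads) cover counting error only. The p-values set the difference between groups of 3 mice against a spread pooled over the libraries of the fit and moderated across genes. Transcripts with shared sequence (paralogs, pseudogenes, overlapping genes) are told apart only as the mapping split them.

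The members, gene lists and tests were chosen with earlier results of these data known. Named genes were those of the 20 called with a mean log2 value of at least 1, no overlap between groups and a proper symbol. List members that passed were named as well. For lists with no member that passed, the members with the smallest unadjusted p were named, so these were picked by their values. Others are said to be chosen after their values were seen. Replicate numbers did not pair the samples: same-numbered control and 28Si livers had deviations correlated at -0.05, -0.22 and -0.24. Alternatives were other scaling, pseudocounts (0.01 and 1), filters (none and 1 RPKM), other sets of libraries, the replicate block, each library left out, and, chosen after seeing the data, 28Si replicate 2 and control replicate 3 both left out and protein-coding genes alone. The fits were tested on simulated data. Some items are not reported here.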

Additional observations from a re-analysis of the deposited data

Results flagged for a closer look

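Genes that passed at 4 months against control and also differed between 28Si and another ion at the same time are given here as log2 differences from limma over the 12 libraries, with 28Si minus 56Fe first and 28Si minus 16O second. The same 28Si livers enter both differences and the comparison with control, so these values are not independent of it. Among small RNAs, mt-Tm differed by 8.92 and 8.92, values that depend on the pseudocount because both other groups were at 0 RPKM. It was also tested only through the 28Si livers, since the control livers were at 0 RPKM as well. mt-Tg differed by 7.28 and 7.62, with 0, 0 and 1.57 RPKM after 56Fe and 0.725, 0 and 0 RPKM after 16O. Because of the livers at 0 RPKM, these values depend on the pseudocount too. Rny3 differed by 2.82 and 2.47, Rny1 by 2.67 and 2.17 and Snord13 by 2.99 and 2.88. Snord104 differed from 56Fe by 7.47 (adjusted p = 0.0352), where its 56Fe values were 0, 0 and 18.3 RPKM, so that this value also depends on the pseudocount. Lower after 28Si were Rpl38, by -1.20 and -1.41, and Rps29, by -0.80 and -1.08. Snhg12 differed from 16O by -1.22 (adjusted p = 0.00802). Ppp1r3c, which rose after 28Si, was lower than after 56Fe by -0.89 (adjusted p = 0.0241), with 21.2, 28.9 and 25.1 RPKM in the 56Fe livers.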

How the results depend on the processing

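The number of genes called at 4 months, 20, was 20 with relative log expression scaling, with pseudocounts of 0.01 and 1, without a filter and at a filter of 1 RPKM, 14 with the 12 libraries of this time and 16 with limma-voom. It was 132 in the RPKM as deposited (37 higher, 95 lower), 9 with all 60 libraries, 9 without both 28Si replicate 2 and control replicate 3, 7 among protein-coding genes alone, and 12 to 26 without 1 library. Members of lists that passed numbered 13, but 60 as deposited (3 higher, 57 lower), 5 with 12 libraries, 1 with 60, 0 without both libraries, and 2 to 22 without 1 library. Genes called between 28Si and 56Fe numbered 47, but 71 as deposited, 85 without a filter and 15 to 60 without 1 library. Between 28Si and 16O they numbered 18, but 35 as deposited, 32 without a filter and 11 to 35 without 1 library. The test of 4 months against the other times called 0, 2 without a filter and 0 without any 1 library. Against the other times, control at 4 months had 177 genes (35 at a pseudocount of 1, 128 to 281 without 1 library) and 28Si had 221 (40, and 174 to 297). Transcripts called numbered 70, but 43 as deposited and 17 to 53 without 1 library. The cause of these changes was not tested, beyond the fewer genes or samples that some settings hold.

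With the replicate number as a block, 9 genes (8 higher, 1 lower), 0 list members and 4 transcripts were called, 36 genes between 28Si and 56Fe and 19 between 28Si and 16O, but the labels do not say that a number marks a shared litter or day and no same-numbered pair deviated together. Over 751 refits of the 43 genes that passed, 452 kept the call, 299 lost it and 0 reversed. Bounds given above as an adjusted p up to a value cover the fits without 1 library, not the other settings. Of the 43, 10 genes kept it without any 1 library, and 2, mt-Tm and mt-Tl1, could not be tested without a 28Si library. With 3 mice per group, small differences were not detectable, and RNAs under 600 bases with few reads carry the most counting error.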

Other observations

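Values of single transcripts at the other times and after the other ions at 4 months are given without a test. They enter the comparisons above only within the sums of their genes. Hsd11b1_5, which fell at 4 months, had 94.4, 75 and 89.7 RPKM in control mice and 12.8, 27.9 and 20.7 RPKM in 28Si mice at 9 months. At 4 months Hsd11b1_5 had 64.1, 81.1 and 65.4 RPKM after 56Fe and 64.2, 55.7 and 45 RPKM after 16O, where all 6 livers were above the 3 28Si livers. At 12 months Hsd11b1_5 had 85.9, 55.0 and 64.9 RPKM in control mice and 34.7, 56.1 and 48.5 RPKM in 28Si mice, and the groups overlapped.

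Cox7b_2, a transcript with a retained intron from a gene of complex IV, had 30.4, 27.1 and 15 RPKM in control mice and 0.631, 0.393 and 0.170 RPKM in 28Si mice at 4 months. In control mice Cox7b_2 had 2.94, 2.19 and 4.17 RPKM at 1 month and 26.2, 26.4 and 21.6 RPKM at 9 months, and in 28Si mice 4.66, 2.61 and 2.76 RPKM at 1 month and 0.636, 0 and 0 RPKM at 9 months. Trf_3 had 50.4, 28.6 and 104 RPKM in control mice and 267, 176 and 257 RPKM in 28Si mice at 9 months, while after 56Fe and 16O at 4 months it ranged from 14.6 to 168 RPKM over 6 livers. At 2 months Trf_3 had 202, 152 and 213 RPKM in control mice and 117, 133 and 256 RPKM in 28Si mice. Those groups overlapped, as did the groups at 1 month, while the groups at 12 months did not. High Trf_3 values were not confined to 28Si mice, with 505 RPKM in 1 56Fe liver at 9 months.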
